A study of Mus musculus with 30 samples.

Results

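The genes described here are 31 genes of cholesterol and fatty acid synthesis, chosen by name from what their products do. Earlier results of these data were known when they were chosen. They make up 31 of the 49315 genes in the count table, and all 31 were among the 17774 genes that passed the filter on low counts. By role they are 7 enzymes of the mevalonate pathway, 11 enzymes of the sterol branch, 6 regulators and carriers, 6 enzymes of fatty acid synthesis and the cholesterol exporter gene Abca1. They were measured by bulk RNA sequencing in 30 libraries of 4T1-tdTomato cells. 4T1 is a metastatic breast cancer line that arose in a BALB/c mouse, here tagged with the red fluorescent protein tdTomato. The cells grew in female NSG mice, an immunodeficient strain that lacks T, B and NK cells, or in female BALB/c mice, which have an intact immune system.

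Each host gave 3 groups of 5 libraries. NSG tumours were taken on day 10 and BALB/c tumours on days 21 and 22, after 200000 cells had been placed in the mammary fat pad. The groups labelled DTC came from lungs on day 7 in both hosts, after 500000 cells had been injected into the tail vein. The macro-met groups came from lungs after the same injection, on days 19 and 20 in NSG mice and on days 21 and 23 in BALB/c mice. All 30 libraries were sorted for live, CD45-negative, tdTomato-positive cells. Tumours and lung samples differed in organ, route and number of cells injected, and tumours and macro-mets also in day between hosts, so these cannot be told apart from stage or host. Whether the 5 libraries of a group came from separate mice is not stated in the labels, so the p-values measure the spread between libraries, which may be technical.

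Cholesterol is built from acetyl-CoA through mevalonate, isoprenoid units, squalene and lanosterol, and long-chain fatty acids are built from acetyl-CoA through malonyl-CoA. SREBP proteins, held in the endoplasmic reticulum with SCAP by INSIG when sterols are plentiful, move to the Golgi when sterols are low and then switch on many of these enzymes. Liver X receptors respond to oxysterols and drive efflux genes such as Abca1. Dividing tumour cells use both pathways for membranes.

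Library totals ran from 29832098 to 65621525 counts, and 17517 to 22187 genes were detected per library. The carcinoma markers were high in every library, with Krt8 at 1630 to 4590 CPM (counts scaled to 1e6 per library, with library sizes adjusted by TMM) and Epcam at 132 to 748 CPM, while Ptprc, which encodes the CD45 that the sort selected against, reached at most 6.62 CPM. The sum of 10 leukocyte markers was 59.6 to 121 CPM in NSG DTC and 99.0 to 730 CPM in BALB/c DTC, with 730 and 310 CPM in BALB/c DTC replicates 1 and 2, and 5 of the 10 were called lower in NSG than in BALB/c DTC. The same pair of BALB/c DTC libraries stood apart by lung epithelium markers, whose summed level over 12 genes was 3540 and 1520 CPM there, against 88.7 to 215 CPM in the other 3 BALB/c DTC libraries. The 4 libraries with the fewest detected genes, 17517 to 19049, were NSG tumour replicates 2 and 3, NSG macro-met replicate 3 and BALB/c tumour replicate 4. In those 4 the sum of 8 skeletal muscle markers was 167 to 797 CPM, against at most 63.1 CPM in every other library. Proliferation markers (10 genes) summed to 2380 to 3020 CPM in NSG DTC and 1510 to 1810 CPM in NSG tumours, and to 2410 to 2630 CPM in BALB/c DTC and 580 to 986 CPM in BALB/c tumours. Endothelial markers (10 genes) summed to 46.6 to 70.6 CPM in NSG DTC and 7.16 to 18.8 CPM in NSG tumours, and to 35.4 to 442 CPM in BALB/c DTC and 7.15 to 26.1 CPM in BALB/c tumours. The part of the leukocyte, endothelial, proliferation and muscle markers in the results was not tested, while lung and adipocyte markers entered an alternative fit as covariates. Lung epithelium markers were higher in DTC than in tumours, with a median log2 fold change of 3.87 in NSG and 8.33 in BALB/c mice. That fit therefore cannot tell these markers apart from stage, and its larger, smaller or lost changes are given as description only.

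DTC were compared with tumours in each host to ask how cells 7 days into the lung differed from the primary site. In NSG mice 9 of the 31 genes rose and 4 fell, with a median log2 fold change of 0.15, against 0.06 over all genes tested. A gene was called when its Benjamini-Hochberg adjusted p from edgeR's quasi-likelihood test was under 0.05, and 16% of all tested genes were called higher and 9.55% lower in that comparison. In BALB/c mice most of the genes were higher in DTC: 20 rose and 3 fell, with a median of 0.70 against -0.09 over all genes, and 20.4% of all tested genes were called higher and 21% lower there. In bulk libraries, fewer cells of a type and less RNA per cell cannot be told apart. Summed over the 18 mevalonate and sterol enzyme genes, the level was 883 to 1240 CPM in NSG DTC and 719 to 927 CPM in NSG tumours, so the groups overlapped. In BALB/c mice it was 989 to 1370 CPM in DTC and 454 to 810 CPM in tumours, with no overlap.

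The NSG change was set against the BALB/c change by an interaction term, the NSG minus BALB/c difference of the log2 fold changes. Of the 31 genes, 16 had a lower DTC over tumour change in NSG mice than in BALB/c mice and 2 had a higher one, with a median difference of -0.56 against 0.05 over all genes. Among all tested genes, 15% were called lower and 18.4% higher in that term. The 16 were Acat2, Mvk, Pmvk, Mvd, Fdps, Fdft1, Sqle, Cyp51, Nsdhl, Ebp, Insig1, Srebf1, Srebf2, Scap, Acly and Fasn, and the 2 were Insig2 and Elovl6. Of the 16, Sqle, Cyp51, Nsdhl, Insig1 and Acly were not called by edgeR when NSG DTC were set against BALB/c DTC. The carcinoma markers moved the same way in this term, with 7 of 8 called lower and a median of -0.81, and so did the proliferation markers, with 8 of 10 called lower, 1 higher and a median of -1.38. Carcinoma markers summed to 4320 to 7310 CPM in NSG DTC and 8430 to 8880 CPM in NSG tumours, and to 7190 to 9410 CPM in BALB/c DTC and 5830 to 6750 CPM in BALB/c tumours. Their part in the host difference was not tested. With offsets for GC content and length, which take out each library's trend with these properties, the NSG comparison gave 4 higher and 4 lower, the BALB/c comparison 24 higher and 3 lower, and the interaction 2 higher and 17 lower. On the authors' TPM values (log2 of TPM + 1) the NSG count was 11 higher and 1 lower and the interaction 4 higher and 8 lower, beside a shift of the median of all genes to 0.17 and 0.16. Without the 4 libraries with the fewest genes, among them NSG tumour replicates 2 and 3, the NSG comparison gave 3 higher and 4 lower. The shares of all tested genes called in these alternative fits are not given here. Whether calls over all genes changed likewise cannot be read from these counts.

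**Figure D1:**
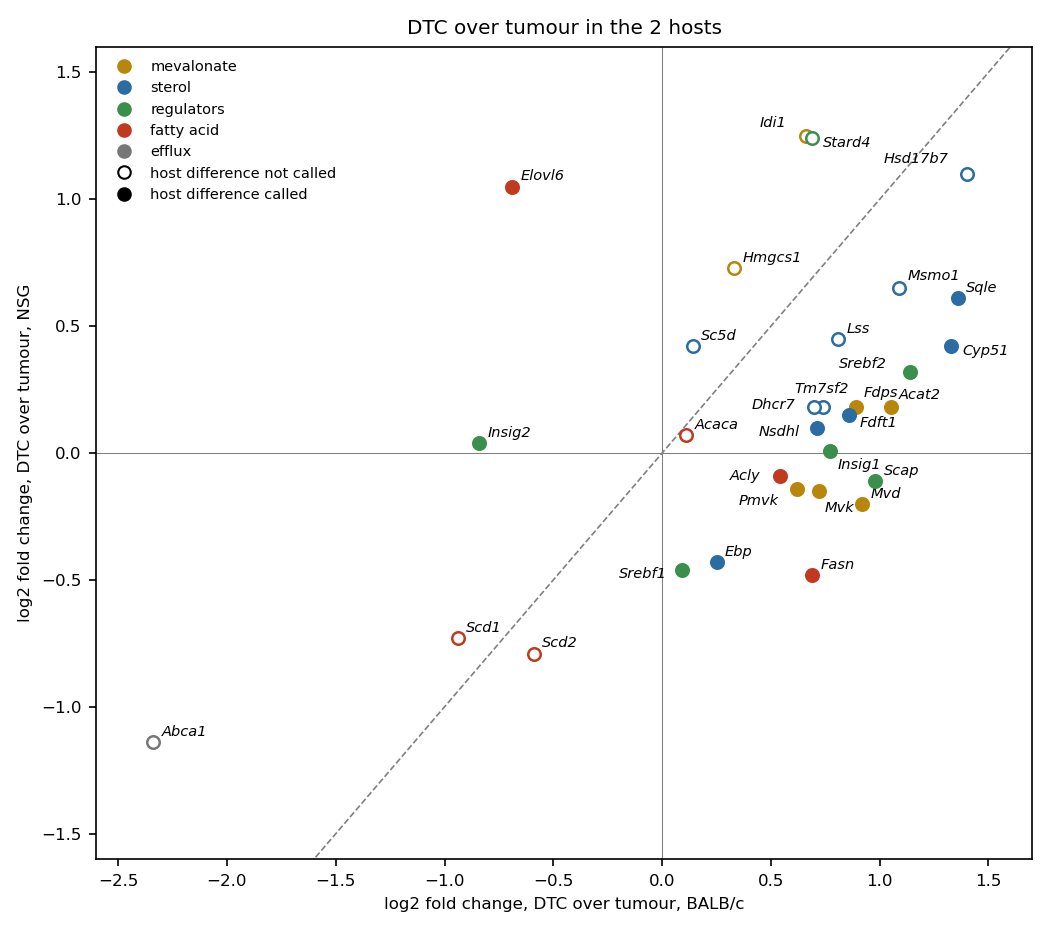
Log2 fold change of DTC over tumour for the 31 genes, BALB/c on the horizontal and NSG on the vertical axis, coloured by role; filled points had an interaction called by edgeR and the dashed line marks equal changes. Of the 18 filled points, 16 lie below the line, and Insig2 and Elovl6 lie above it.

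Macro-mets were compared with DTC to ask how established lung lesions differed from early lung cells. In NSG mice 7 of the 31 genes rose and 8 fell in macro-mets over DTC (median 0.12, against 0.02 over all genes), where 21.3% of all tested genes were called higher and 22.4% lower. In BALB/c mice 2 rose and 12 fell (median -0.38, against -0.04), where 16.6% were called higher and 14.2% lower. The host difference of these changes was called higher for 8 genes and lower for 2 (median 0.32, against 0.03), with 11.6% of all tested genes called higher and 16.6% lower. Using the GC and length offsets, the NSG split was 7 higher and 3 lower, against 2 higher and 10 lower on TPM, the BALB/c split was 2 higher and 6 lower on TPM, and the interaction was 8 higher and 0 lower with offsets and 4 higher and 7 lower on TPM. Without NSG DTC replicate 3 the NSG count of rises was 4, and without BALB/c DTC replicate 1, 3 or 4 or BALB/c macro-met replicate 4 the BALB/c count of rises was 1.

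Macro-mets set against tumours gave 6 rises and 4 falls in NSG mice (median 0.12, against 0.02 over all genes) and 12 rises and 3 falls in BALB/c mice (median 0.26, against -0.03). Of all tested genes, 16.9% were called higher and 13.6% lower in NSG mice, and 19.6% higher and 18.2% lower in BALB/c mice. The NSG split under offsets was 5 higher and 7 lower. The host difference was called for 3 genes, with 1.7% of all tested genes called higher and 3.53% lower: Abca1 higher, and Sqle and Acaca lower. The count of calls higher was 0 without NSG tumour 4 or 5, BALB/c tumour 5, NSG macro-met 3 or any of the 5 BALB/c macro-mets, and Abca1 itself also lost its call without NSG tumour 1 or BALB/c tumour 4. That count was 2 without BALB/c tumour 1, and the count of calls lower was 1 without NSG tumour 5 or NSG macro-met 3 or 4. RLE size factors gave 2 higher and 2 lower in this term, and voom 0 higher and 2 lower.

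Hosts were compared at each stage. In tumours 11 of the 31 genes were higher in NSG than in BALB/c mice and 1 was lower (median 0.17, against -0.08 over all genes), where 12.6% of all tested genes were called higher and 11% lower. The 1 lower gene, Insig2, lost its call without NSG tumour 2, 4 or 5 or BALB/c tumour 3 (0 lower), 3 genes were lower without NSG tumour 3, and DESeq2 gave 11 higher and 3 lower. In DTC 6 were higher in NSG and 13 lower (median -0.35, against 0.01), where 21.7% of all tested genes were called higher and 17.1% lower. On offsets that split was 0 higher and 10 lower, and on TPM 7 higher and 6 lower, and 3 were higher without NSG DTC replicate 3. In macro-mets 0 genes were called higher and 0 lower by edgeR (median 0.03, against 0.01), where 0.76% of all tested genes were called higher and 1.88% lower. At an unadjusted p under 0.05 there were 2 genes, Abca1 (1.47 ± 0.64, adjusted p = 0.256) and Scd2 (-0.41 ± 0.19, adjusted p = 0.283). DESeq2, voom and both TPM fits also gave 0 and 0, and edgeR on the compared groups alone gave 0 higher and 1 lower.

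**Figure D2:**
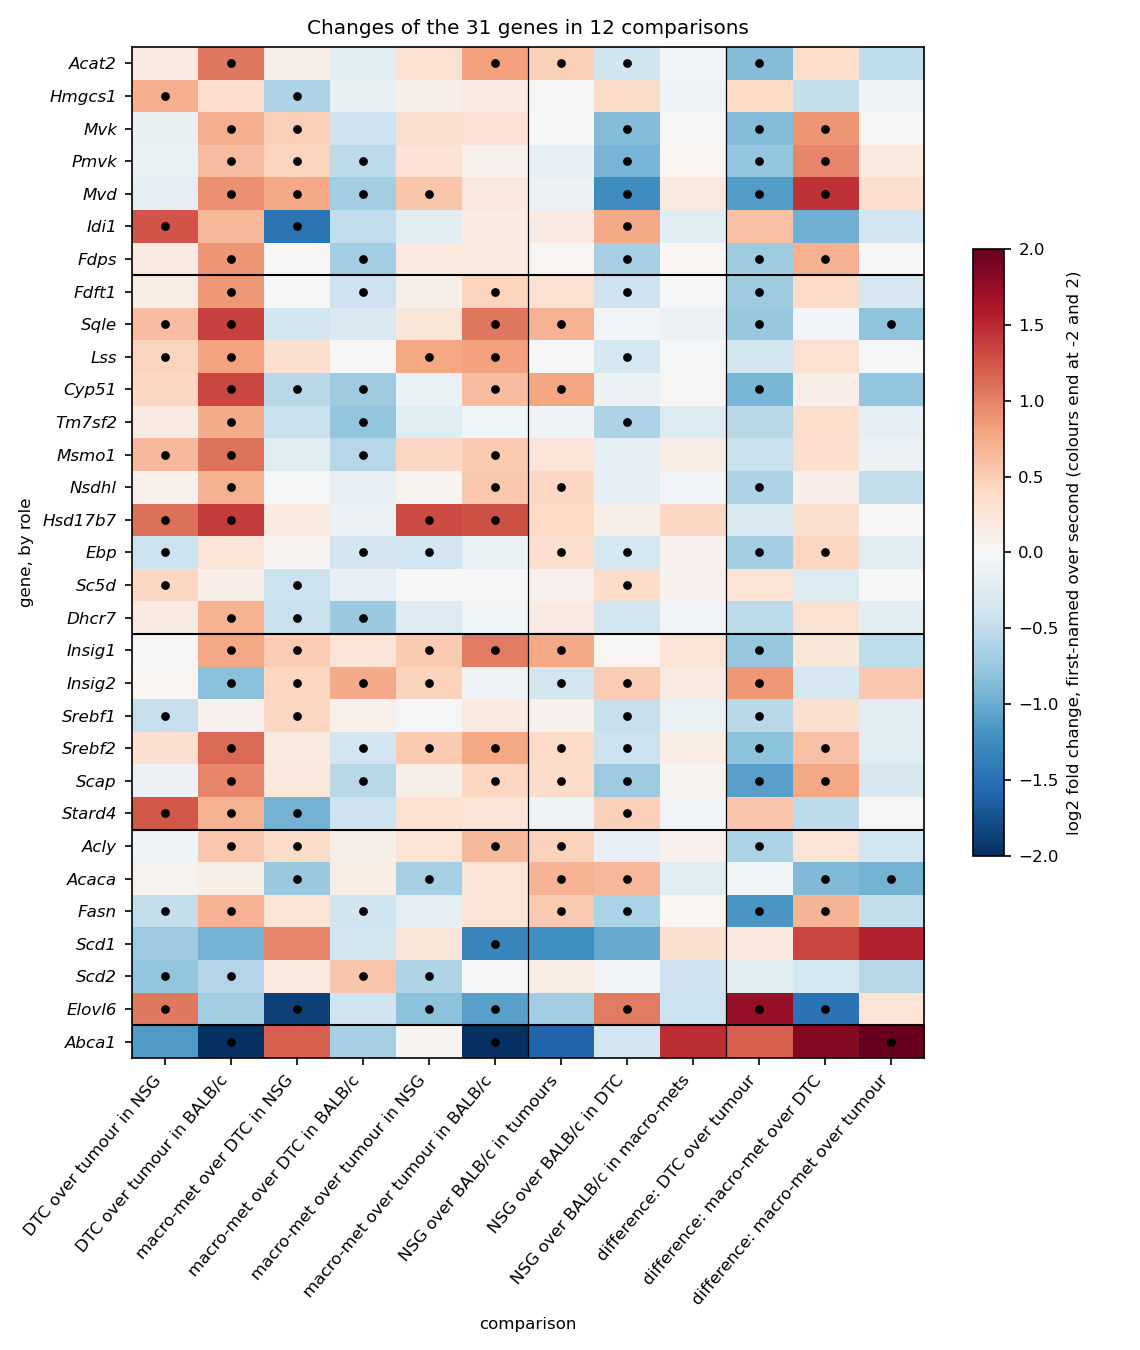
Log2 fold changes of the 31 genes (rows, by role) in 9 pairwise comparisons and 3 host differences (columns), first-named group over the second; black dots mark genes called by edgeR at an adjusted p under 0.05. The BALB/c DTC over tumour column holds 20 dots on rises, and the NSG over BALB/c macro-met column holds none.

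The promoters printed here belong to genes picked after their values were seen: Cyp51, Mvd, Srebf2 and Fasn, whose DTC change differed between hosts in 1 direction, Elovl6, which differed in the other, and Hmgcs1 for its sterol element. The sequences are from RefSeq on GRCm38.p6 and run 5′ to 3′ on the gene's strand from 250 bases before the start site to 50 after it. Capitals mark TCACNCCAC, a sterol regulatory element, or CCAAT, the box bound by NF-Y, each on either strand.
Hmgcs1 (chr13:119690101-119690400, plus strand): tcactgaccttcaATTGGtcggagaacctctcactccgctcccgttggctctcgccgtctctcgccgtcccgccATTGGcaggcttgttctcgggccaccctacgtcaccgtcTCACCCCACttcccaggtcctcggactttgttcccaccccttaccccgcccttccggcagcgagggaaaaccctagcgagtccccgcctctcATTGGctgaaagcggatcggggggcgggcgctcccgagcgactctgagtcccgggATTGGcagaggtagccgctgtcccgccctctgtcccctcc
Cyp51 (chr5:4104648-4104947, minus strand): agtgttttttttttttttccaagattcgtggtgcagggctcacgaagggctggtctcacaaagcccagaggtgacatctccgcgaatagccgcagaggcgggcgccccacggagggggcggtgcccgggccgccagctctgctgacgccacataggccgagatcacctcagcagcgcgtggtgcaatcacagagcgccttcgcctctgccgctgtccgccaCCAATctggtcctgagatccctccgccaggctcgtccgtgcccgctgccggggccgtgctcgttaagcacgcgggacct
Mvd (chr8:122443373-122443672, minus strand): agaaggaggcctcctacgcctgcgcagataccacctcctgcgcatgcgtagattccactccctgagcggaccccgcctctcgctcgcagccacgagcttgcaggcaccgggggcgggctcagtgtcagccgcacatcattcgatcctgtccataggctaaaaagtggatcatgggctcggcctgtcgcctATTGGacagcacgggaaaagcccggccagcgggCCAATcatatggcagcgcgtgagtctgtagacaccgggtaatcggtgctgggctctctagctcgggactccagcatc
Srebf2 (chr15:82147019-82147318, plus strand): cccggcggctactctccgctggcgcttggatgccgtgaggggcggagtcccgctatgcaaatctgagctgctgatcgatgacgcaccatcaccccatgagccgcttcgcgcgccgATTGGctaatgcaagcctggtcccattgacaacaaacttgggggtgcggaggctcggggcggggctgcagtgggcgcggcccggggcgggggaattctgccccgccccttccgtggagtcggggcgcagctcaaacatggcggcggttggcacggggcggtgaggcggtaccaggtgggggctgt
Fasn (chr11:120824498-120824797, minus strand): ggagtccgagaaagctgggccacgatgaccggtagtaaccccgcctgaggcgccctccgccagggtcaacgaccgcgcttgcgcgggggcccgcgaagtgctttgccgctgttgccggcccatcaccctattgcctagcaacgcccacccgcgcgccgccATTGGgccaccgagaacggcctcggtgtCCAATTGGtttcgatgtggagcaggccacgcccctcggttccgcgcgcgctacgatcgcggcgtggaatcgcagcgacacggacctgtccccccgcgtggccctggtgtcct
Elovl6 (chr3:129532136-129532435, plus strand): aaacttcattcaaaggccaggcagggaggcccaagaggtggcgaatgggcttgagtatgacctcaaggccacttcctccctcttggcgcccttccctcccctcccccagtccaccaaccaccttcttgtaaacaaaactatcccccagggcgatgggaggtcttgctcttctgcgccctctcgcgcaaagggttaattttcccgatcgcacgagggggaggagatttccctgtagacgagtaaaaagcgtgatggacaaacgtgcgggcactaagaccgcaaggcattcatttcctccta
In the Fasn promoter 2 CCAAT matches on opposite strands overlap, and the Elovl6 window holds no match to either motif. The table of promoters held 33 windows for 25 of the 31 genes. CCAAT stood in 63.6% of those windows and in 37.4% of all 32851 promoters of the same length. GGGCGG, the GC box, stood in 75.8% against 35.7%, and the E-box CACGTG in 21.2% against 7.15%. TCACNCCAC was the only form of the sterol element searched for, and near forms were not counted. It stood in 1 of the 33 windows (3.03%, Hmgcs1) against 1.24% of all. These are matches of letters and were not set against any change.

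Of the 7 mevalonate enzymes, 2 rose in NSG DTC over tumours and 5 in BALB/c DTC over tumours, where 16% and 20.4% of all tested genes were called higher, and none fell. The 2 were Hmgcs1 and Idi1, and the 5 were Acat2, Mvk, Pmvk, Mvd and Fdps. Idi1 was called higher in both hosts by DESeq2 (NSG 1.22, BALB/c 0.64) and with GC and length offsets (NSG 0.63, BALB/c 1.01).

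Mvd (ENSMUSG00000006517, chr8:122433601-122443422) encodes the decarboxylase that makes isopentenyl diphosphate. In NSG mice Mvd was at 13.4, 19.6, 12.1, 13.0 and 16.8 CPM in tumours, 12.4, 12.5, 8.07, 12.6 and 19.8 CPM in DTC and 24.0, 22.6, 14.7, 22.2 and 26.1 CPM in macro-mets. In BALB/c mice Mvd was at 20.2, 14.3, 21.6, 15.3 and 10.1 CPM in tumours, 21.7, 28.0, 33.0, 35.5 and 35.7 CPM in DTC and 22.7, 22.4, 16.6, 17.4 and 15.9 CPM in macro-mets. Every BALB/c DTC library was above every BALB/c tumour library and every NSG DTC library, while NSG DTC and NSG tumours overlapped. Mvd was not called in NSG DTC over tumours (log2 fold change ± SE -0.20 ± 0.21, adjusted p = 0.539) and rose in BALB/c DTC (0.92 ± 0.21, adjusted p = 0.000769), and the host difference was -1.11 ± 0.30, adjusted p = 0.00385. In macro-mets over DTC it rose in NSG mice (0.75 ± 0.21, adjusted p = 0.00428) and fell in BALB/c mice (-0.70 ± 0.21, adjusted p = 0.0109), a host difference of 1.44 ± 0.30, adjusted p = 0.000574. With offsets the host difference of the DTC change was -0.74 and still called, and the NSG rise in macro-mets over DTC was 0.35 and not called. With marker covariates the BALB/c changes were 1.66 in DTC and -1.19 in macro-mets over DTC, both called.

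Pmvk (ENSMUSG00000027952, chr3:89454541-89469013), phosphomevalonate kinase, followed the same order of groups. It stood at 16.5, 19.6, 16.6, 19.4 and 21.1 CPM in tumours, 19.1, 17.7, 9.35, 17.3 and 21.0 CPM in DTC and 24.2, 26.7, 14.6, 26.7 and 22.1 CPM in macro-mets of NSG mice. The BALB/c libraries had 20.3, 22.5, 26.0, 21.2 and 14.5 CPM in tumours, 30.5, 32.0, 28.6, 33.3 and 36.4 CPM in DTC and 24.0, 24.7, 19.1, 21.4 and 22.3 CPM in macro-mets. BALB/c DTC did not overlap BALB/c tumours, BALB/c macro-mets or NSG DTC, and NSG DTC replicate 3 was the lowest of all 30. Pmvk was not called in NSG DTC (-0.14 ± 0.17, adjusted p = 0.59) and rose in BALB/c DTC (0.62 ± 0.17, adjusted p = 0.00431), with a host difference of -0.77 ± 0.24, adjusted p = 0.0144. In macro-mets over DTC it rose in NSG mice (0.44 ± 0.17, adjusted p = 0.0386) and fell in BALB/c mice (-0.53 ± 0.17, adjusted p = 0.0179). The host difference of Pmvk was not called with offsets (-0.46) or on TPM (-0.56), and its changes in macro-mets over DTC were not called on TPM (NSG 0.30, BALB/c -0.41). Its NSG rise there was 0.12 with offsets and 0.41 on the compared groups alone, neither called, and its BALB/c DTC rise was 0.39 and called with offsets and 0.78 and not called with marker covariates. Mvk, mevalonate kinase, averaged 27.0 ± 8.13 CPM in NSG DTC and 29.9 ± 1.07 CPM in NSG tumours, and 49.3 ± 6.13 CPM in BALB/c DTC and 30.0 ± 6.25 CPM in BALB/c tumours (SD, n = 5 each). It was not called in NSG DTC (-0.15 ± 0.17, adjusted p = 0.565) and rose in BALB/c DTC (0.72 ± 0.17) with a host difference of -0.87 ± 0.24, adjusted p = 0.00514. With offsets the BALB/c rise of Mvk was 0.47 and called and its host difference was -0.53 and not called, and with marker covariates the rise was 1.32.

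Fdps (ENSMUSG00000059743, chr3:89093588-89101959), farnesyl diphosphate synthase, was at 71.9, 60.9, 63.5, 56.9 and 71.5 CPM in tumours, 75.2, 57.3, 66.5, 66.2 and 102 CPM in DTC and 77.7, 75.8, 76.7, 62.8 and 78.6 CPM in macro-mets of NSG mice. Its BALB/c values were 86.4, 58.5, 70.1, 65.1 and 36.5 CPM in tumours, 94.9, 120, 93.1, 137 and 141 CPM in DTC and 84.3, 75.9, 63.3, 74.8 and 63.2 CPM in macro-mets. All 5 BALB/c DTC libraries were above the other 10 BALB/c libraries, and NSG DTC overlapped NSG tumours and NSG macro-mets. Fdps was not called in NSG DTC over tumours (0.18 ± 0.16, adjusted p = 0.468), rose in BALB/c DTC over tumours (0.89 ± 0.17, adjusted p = 7.86e-05) and fell in BALB/c macro-mets over DTC (-0.70 ± 0.16, adjusted p = 0.00159). The host difference of the DTC change was -0.71 ± 0.23, adjusted p = 0.0175, and it was not called with offsets (-0.62) or on TPM (-0.51). With marker covariates the BALB/c DTC rise was 1.41. Its exons share 1124 bases with Gm43738 on the same strand, so reads there could be split between them.

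Acat2 (ENSMUSG00000023832, chr17:12942890-12960747), the cytosolic acetoacetyl-CoA thiolase, had 48.1, 48.4, 36.3, 41.9 and 55.7 CPM in tumours, 48.6, 46.0, 50.6, 49.9 and 66.8 CPM in DTC and 61.6, 63.6, 41.3, 58.7 and 60.1 CPM in macro-mets in NSG mice. In BALB/c hosts Acat2 was at 42.1, 32.1, 41.0, 27.0 and 24.6 CPM in tumours, 55.4, 66.7, 60.9, 66.3 and 95.1 CPM in DTC and 73.6, 57.9, 53.3, 58.9 and 50.7 CPM in macro-mets. BALB/c tumours lay below all BALB/c DTC and macro-mets, and replicate 5 was the highest DTC library in both hosts. Acat2 was not called in NSG DTC over tumours (0.18 ± 0.16, adjusted p = 0.431). It rose in BALB/c DTC (1.05 ± 0.16, adjusted p = 6.09e-06) and BALB/c macro-mets (0.82 ± 0.16, adjusted p = 0.000206) over tumours, and its DTC change was lower in NSG mice (-0.86 ± 0.23, adjusted p = 0.00354). A neighbouring near-identical gene, Acat3, could share its reads.

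Hmgcs1, HMG-CoA synthase, and Idi1, isopentenyl diphosphate isomerase, were the 2 mevalonate genes called in NSG DTC. Hmgcs1 averaged 111 ± 16.0 CPM in NSG DTC and 66.7 ± 14.0 CPM in NSG tumours, and 85.6 ± 16.9 CPM in BALB/c DTC and 68.1 ± 13.5 CPM in BALB/c tumours. It rose in NSG DTC (0.73 ± 0.18, adjusted p = 0.00268), was not called in BALB/c DTC (0.33 ± 0.18, adjusted p = 0.135), and the host difference was not called (0.40 ± 0.25, adjusted p = 0.228). Idi1 averaged 31.4 ± 6.84 CPM in NSG DTC and 13.3 ± 3.66 CPM in NSG tumours, and 18.7 ± 7.2 CPM in BALB/c DTC and 11.8 ± 2.56 CPM in BALB/c tumours. It rose in NSG DTC over tumours (1.25 ± 0.28, adjusted p = 0.00149) and fell in NSG macro-mets over DTC (-1.46 ± 0.28, adjusted p = 9.97e-05), and the interval of its host difference in the DTC change was -0.19 to 1.36. Under the GC and length offsets Hmgcs1 was not called in NSG DTC (0.20) and was called higher in BALB/c DTC (0.66), and the NSG changes of Idi1 were 0.63 in DTC, still called, and -0.51 in macro-mets over DTC, not called. The NSG DTC change of Hmgcs1 was also not called without the 4 libraries with the fewest genes (0.51), and in the fit with lung and adipocyte marker covariates both calls were lost (Hmgcs1 0.52, Idi1 0.89). Among mevalonate calls named here, leaving out 1 library ended those of Pmvk in macro-mets over DTC in NSG mice (0.28 to 0.44 without NSG DTC 3, NSG DTC 4, NSG macro-met 1, NSG macro-met 2 or NSG macro-met 4) and in BALB/c mice (-0.48 without BALB/c macro-met 3).

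Of the 11 sterol-branch enzymes, 5 rose and 1 fell in NSG DTC over tumours, with a median log2 fold change of 0.42, where 16% of all tested genes were called higher and 9.55% lower. In BALB/c DTC over tumours 9 rose and none fell, with a median of 0.81, where 20.4% were called higher and 21% lower. Hsd17b7, Msmo1, Lss and Sqle rose in both hosts. Tm7sf2 is the lowest of the 11 by the authors' TPM, at 1.88 to 8.51 TPM over the 30 libraries, and Fdft1 the highest at 45.8 to 146 TPM.

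Sqle (ENSMUSG00000022351, chr15:59315077-59331192), squalene epoxidase, makes the first oxygenated sterol precursor. In NSG mice Sqle was at 104, 115, 107, 103 and 138 CPM in tumours, 144, 168, 170, 182 and 199 CPM in DTC and 150, 145, 111, 117 and 145 CPM in macro-mets. Among BALB/c libraries it was at 92.7, 66.8, 89.9, 58.5 and 42.3 CPM in tumours, 127, 197, 178, 175 and 223 CPM in DTC and 150, 152, 123, 152 and 147 CPM in macro-mets. BALB/c tumours were the lowest group and overlapped none of the other 5, and DTC were above tumours in both hosts without overlap. Sqle rose in NSG DTC (0.61 ± 0.16, adjusted p = 0.00475) and BALB/c DTC (1.36 ± 0.16, adjusted p = 7.13e-08) over tumours, by less in NSG mice (-0.76 ± 0.22, adjusted p = 0.00848). NSG and BALB/c DTC were not told apart (-0.06 ± 0.16, adjusted p = 0.79, interval -0.37 to 0.25), and NSG tumours were higher than BALB/c tumours (0.70 ± 0.16, adjusted p = 0.00152). Macro-mets over tumours also differed between hosts (-0.81 ± 0.22, adjusted p = 0.0272). Without the 4 libraries with the fewest genes, the NSG DTC change of Sqle was 0.47 and was not called. The host difference of its DTC change was -0.52 and not called on TPM, and that of macro-mets over tumours was not called without those 4 libraries (-0.77) or with marker covariates (-0.69).

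Cyp51 (ENSMUSG00000001467, chr5:4081145-4104746), lanosterol 14-alpha demethylase, was at 73.1, 74.8, 70.8, 62.1 and 95.3 CPM in tumours, 77.0, 93.0, 115, 91.7 and 128 CPM in DTC and 76.3, 69.3, 57.6, 50.4 and 87.3 CPM in macro-mets of NSG mice. Its BALB/c levels were 69.3, 34.9, 50.2, 37.9 and 25.0 CPM in tumours, 82.6, 119, 113, 102 and 131 CPM in DTC and 63.0, 66.4, 61.3, 77.3 and 67.0 CPM in macro-mets. BALB/c DTC stood above all BALB/c tumours and macro-mets, whereas each NSG group overlapped the next. Cyp51 was not called in NSG DTC (0.42 ± 0.19, adjusted p = 0.103), rose in BALB/c DTC (1.33 ± 0.19, adjusted p = 2.87e-06), and the host difference was -0.91 ± 0.27, adjusted p = 0.00929. It was higher in NSG than in BALB/c tumours (0.79 ± 0.19, adjusted p = 0.00286) and fell in macro-mets over DTC in NSG (-0.56 ± 0.19, adjusted p = 0.0166) and BALB/c mice (-0.71 ± 0.19, adjusted p = 0.00514). NSG and BALB/c DTC were not told apart for Cyp51 (-0.12, adjusted p = 0.664 by edgeR). On TPM its NSG DTC change was 0.62 and called higher, and the NSG fall in macro-mets over DTC was not called with offsets (-0.29) or without the 4 libraries with the fewest genes (-0.47). Its exons overlap 166 bases of Akap9 on the other strand, and the strand setting of the counts is not given in the sources used here.

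Fdft1 (ENSMUSG00000021273, chr14:63145150-63179578), squalene synthase, takes farnesyl diphosphate into the sterol branch. Its NSG values were 88.1, 71.9, 72.0, 79.8 and 95.0 CPM in tumours, 83.3, 72.6, 90.6, 86.5 and 118 CPM in DTC and 99.2, 95.0, 71.4, 82.7 and 92.9 CPM in macro-mets. Its levels in BALB/c mice were 82.5, 57.0, 81.6, 62.1 and 48.2 CPM in tumours, 92.6, 123, 114, 110 and 162 CPM in DTC and 100, 98.8, 80.8, 91.5 and 81.5 CPM in macro-mets. BALB/c DTC were above all BALB/c tumours, and in NSG mice the 3 stages overlapped. The NSG DTC change of Fdft1 was 0.15 ± 0.15, adjusted p = 0.505, and it rose in BALB/c DTC (0.86 ± 0.15, adjusted p = 3.07e-05), with a host difference of -0.71 ± 0.21, adjusted p = 0.00845. That difference was -0.47 and not called on TPM, and the BALB/c rise was 1.35 with marker covariates. It overlaps 774 exonic bases of Ctsb on the other strand.

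Lss (ENSMUSG00000033105, chr10:76531588-76557138), lanosterol synthase, was at 27.4, 25.4, 27.7, 30.7 and 39.6 CPM in tumours, 36.4, 43.1, 36.4, 41.7 and 49.1 CPM in DTC and 58.8, 55.4, 42.5, 48.4 and 52.9 CPM in macro-mets of NSG mice. The corresponding BALB/c values were 35.3, 35.0, 30.4, 25.6 and 23.9 CPM in tumours, 42.3, 57.5, 52.6, 47.0 and 64.0 CPM in DTC and 60.8, 53.0, 44.4, 55.9 and 50.3 CPM in macro-mets. In both hosts every macro-met library was above every tumour library, while NSG DTC overlapped NSG tumours and BALB/c DTC did not overlap BALB/c tumours. Lss rose in macro-mets over tumours in NSG (0.77 ± 0.14, adjusted p = 8.83e-05) and BALB/c mice (0.82 ± 0.14, adjusted p = 3.38e-05), and in DTC over tumours in NSG (0.45 ± 0.14, adjusted p = 0.0134) and BALB/c mice (0.81 ± 0.14, adjusted p = 2.32e-05). The DTC change was not told apart between hosts (interval -0.73 to 0.02, adjusted p = 0.162 by edgeR).

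**Figure D3:**
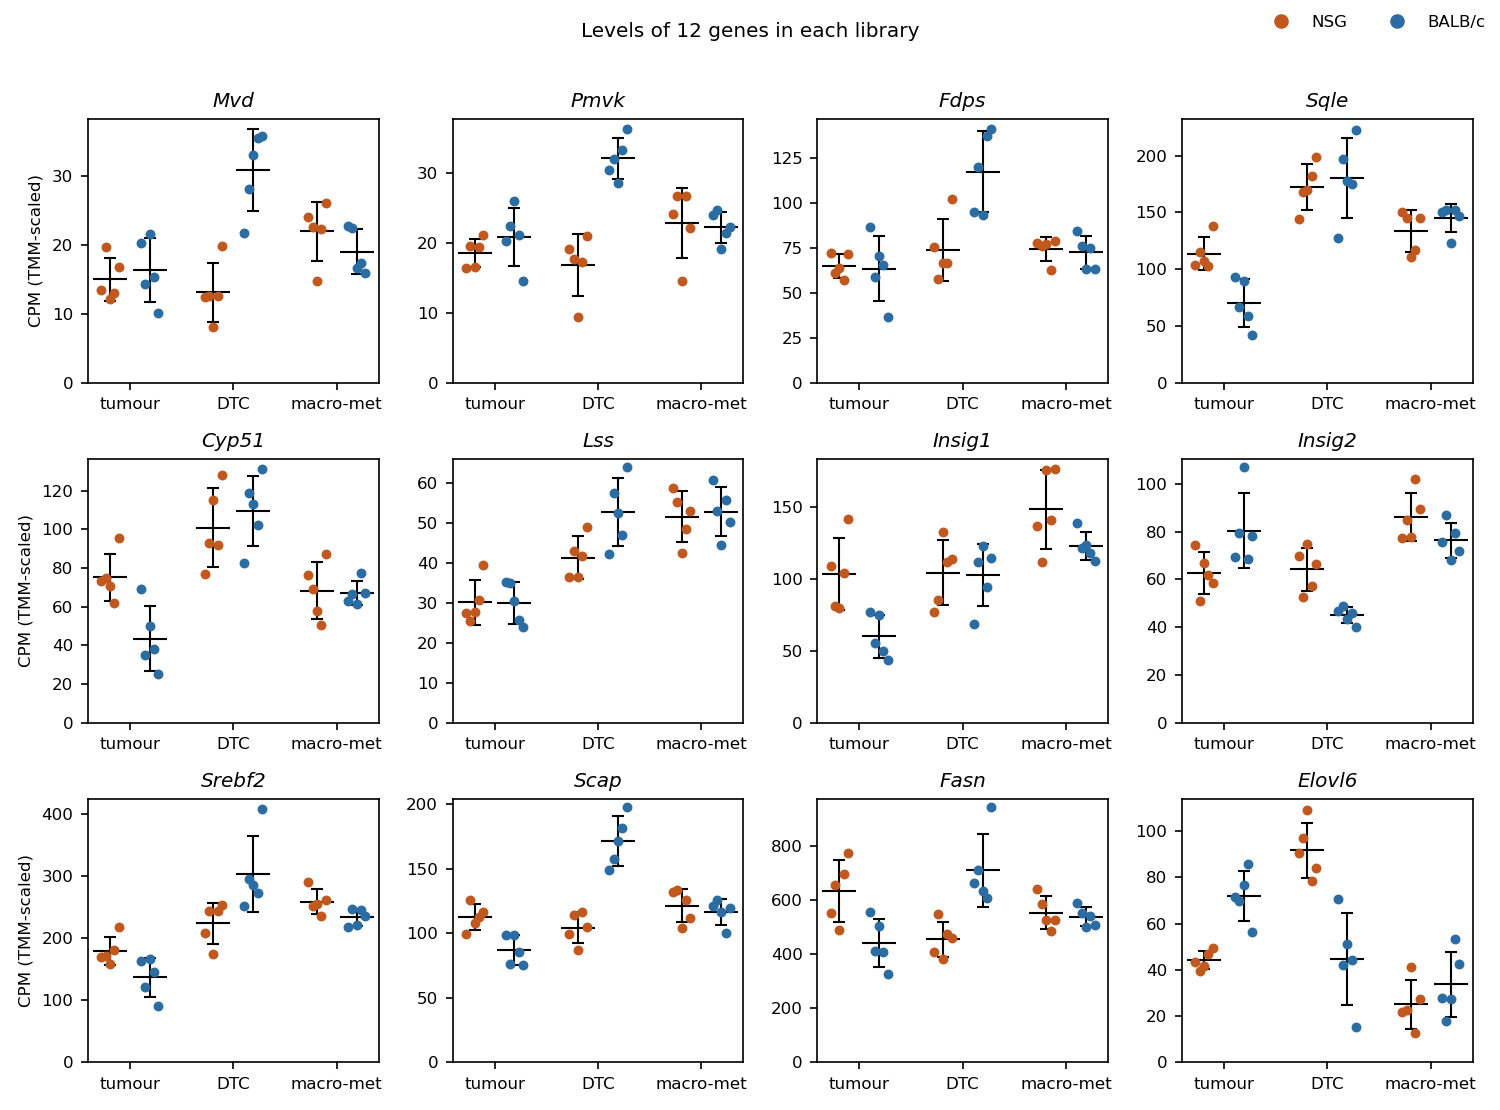
CPM (TMM-scaled) of 12 genes in the 30 libraries by stage, NSG orange and BALB/c blue; points are libraries, and black lines are group means with SD (n = 5). BALB/c DTC lie above NSG DTC without overlap for Mvd, Pmvk, Scap and Fasn, and below them for Insig2 and Elovl6.

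Hsd17b7, which acts on the 3-keto group after C4 demethylation, averaged 45.4 ± 9.15 CPM in NSG DTC and 21.1 ± 4.55 CPM in NSG tumours, and 42.1 ± 8.85 CPM in BALB/c DTC and 16.0 ± 5.94 CPM in BALB/c tumours. It rose in both hosts (NSG 1.10 ± 0.21, BALB/c 1.40 ± 0.21) and in macro-mets over tumours (NSG 1.30 ± 0.21, BALB/c 1.27 ± 0.21). With GC and length offsets its NSG DTC change was 0.62 and was not called. Msmo1, the C4 methyl oxidase, rose in NSG DTC (0.65 ± 0.18, adjusted p = 0.00846) and BALB/c DTC (1.09 ± 0.18, adjusted p = 2.48e-05). Nsdhl, the C4 decarboxylating dehydrogenase, was not called in NSG DTC (0.10 ± 0.13, adjusted p = 0.624) and rose in BALB/c DTC (0.71 ± 0.13, adjusted p = 6.24e-05) with a host difference of -0.61 ± 0.18, adjusted p = 0.00956, which was -0.36 and not called on TPM and -1.08 with offsets. Between hosts in DTC, Nsdhl was not called by edgeR (-0.19, adjusted p = 0.265) and was called lower in NSG mice with offsets (-0.47). Dhcr7, the last enzyme of the Kandutsch-Russell route, rose in BALB/c DTC over tumours (0.70 ± 0.17) and fell in macro-mets over DTC in NSG (-0.44 ± 0.17) and BALB/c mice (-0.75 ± 0.17). The NSG fall of Dhcr7 was not called without a filter (-0.41) or without the 4 libraries with the fewest genes (-0.30), and its BALB/c DTC rise was 1.17 with marker covariates. Tm7sf2, a sterol C14 reductase, rose in BALB/c DTC (0.74 ± 0.23; 0.51 and not called with marker covariates), and 532 of its exonic bases are shared with Vps51 on the same strand.

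Ebp, the sterol isomerase, was the 1 enzyme of this branch that fell in NSG DTC over tumours (-0.43 ± 0.11, adjusted p = 0.00541), at 38.8 ± 3.0 CPM in DTC and 52.1 ± 5.72 CPM in tumours. It was not called in BALB/c DTC (0.25 ± 0.11, adjusted p = 0.0711), and the host difference was -0.68 ± 0.16, adjusted p = 0.00133. The NSG fall of Ebp was not called on TPM (-0.20) or with marker covariates (-0.28), its BALB/c change was called higher with marker covariates (0.56) and without the 2 lung-rich libraries (0.35), and its host difference was -0.42 and called on TPM. Sc5d, lathosterol oxidase, rose in NSG DTC (0.42 ± 0.11, adjusted p = 0.00463) and was not called in BALB/c DTC (0.14 ± 0.11, adjusted p = 0.289), but with GC and length offsets its NSG change was -0.15 and its BALB/c change was 0.54 and called higher. The NSG rise of Sc5d was also not called without the 4 libraries with the fewest genes (0.21) or with marker covariates (0.33). The NSG DTC calls of Lss and Msmo1 were lost with offsets (0.11 and 0.18) and without the 4 libraries with the fewest genes (0.23 and 0.54). Calls of sterol enzymes named here that ended when 1 library was left out were those of Lss in NSG DTC over tumours (0.36 to 0.39 without NSG tumour 1, NSG DTC 2 or NSG DTC 5), Msmo1 in NSG DTC over tumours (0.48 without NSG DTC 3), Cyp51 in NSG macro-mets over DTC (-0.47 without NSG DTC 5 or NSG macro-met 4), Dhcr7 in NSG macro-mets over DTC (-0.45 to -0.33 without NSG DTC 2, NSG DTC 3, NSG DTC 5, NSG macro-met 3, NSG macro-met 4 or NSG macro-met 5) and Sqle in the host difference of macro-mets over tumours (-0.77 to -0.73 without NSG tumour 5, NSG macro-met 3 or NSG macro-met 4).

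Of the 6 regulators and carriers, Stard4 rose and Srebf1 fell in NSG DTC over tumours, 1 of 6 in each direction against 16% of all tested genes called higher and 9.55% lower. In BALB/c DTC over tumours 4 rose (Insig1, Srebf2, Scap and Stard4) and Insig2 fell, against 20.4% higher and 21% lower.

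Srebf2 (ENSMUSG00000022463, chr15:82147181-82205379) encodes SREBP2, the factor that chiefly drives cholesterol synthesis. In NSG mice Srebf2 was at 169, 172, 159, 181 and 218 CPM in tumours, 208, 243, 174, 244 and 253 CPM in DTC and 290, 251, 255, 236 and 262 CPM in macro-mets. In BALB/c mice Srebf2 was at 163, 121, 166, 145 and 90.2 CPM in tumours, 252, 295, 286, 272 and 408 CPM in DTC and 218, 247, 222, 245 and 235 CPM in macro-mets. The BALB/c stages did not overlap one another, with tumours lowest, macro-mets between and DTC highest, and replicate 5 was the highest BALB/c DTC library. Srebf2 was not called in NSG DTC (0.32 ± 0.14, adjusted p = 0.0829), rose in BALB/c DTC (1.14 ± 0.14, adjusted p = 1.18e-07), and the host difference was -0.82 ± 0.19, adjusted p = 0.00132. It rose in macro-mets over tumours in NSG (0.53 ± 0.14, adjusted p = 0.00405) and BALB/c mice (0.77 ± 0.14, adjusted p = 7.1e-05). The NSG DTC change of Srebf2 was called higher with offsets (0.35) and on TPM (0.53), and its NSG rise in macro-mets over tumours was not called with offsets (0.25) or without the 4 libraries with the fewest genes (0.38).

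Scap (ENSMUSG00000032485, chr9:110333288-110384950), the escort protein of SREBP, had the smallest adjusted p of the 31 genes in the host difference. It was at 99.4, 126, 108, 113 and 117 CPM in tumours, 99.4, 114, 87.4, 117 and 105 CPM in DTC and 132, 134, 104, 126 and 112 CPM in macro-mets of NSG mice. Scap in BALB/c hosts was at 99.0, 76.5, 98.6, 85.6 and 75.2 CPM in tumours, 149, 158, 172, 182 and 198 CPM in DTC and 121, 126, 117, 100 and 120 CPM in macro-mets. BALB/c DTC lay above all 25 other libraries, and NSG DTC overlapped NSG tumours. Scap was not called in NSG DTC over tumours (-0.11 ± 0.10, adjusted p = 0.484) and rose in BALB/c DTC over tumours (0.98 ± 0.10, adjusted p = 1.18e-08), a host difference of -1.09 ± 0.15, adjusted p = 2.88e-06. It fell in BALB/c macro-mets over DTC (-0.56 ± 0.10, adjusted p = 0.000114). Its exons overlap 985 bases of a transcript on the other strand, 5830462I19Rik.

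Insig1 (ENSMUSG00000045294, chr5:28071363-28078662), which retains the SREBP complex and is itself an SREBP target, was at 109, 81.6, 80.2, 104 and 142 CPM in tumours, 77.3, 85.5, 133, 112 and 114 CPM in DTC and 137, 112, 176, 141 and 177 CPM in macro-mets of NSG mice. BALB/c hosts had 76.9, 55.3, 75.0, 50.1 and 43.3 CPM in tumours, 69.0, 112, 123, 94.5 and 115 CPM in DTC and 139, 122, 124, 118 and 113 CPM in macro-mets. BALB/c tumours were below all NSG tumours and all BALB/c macro-mets, and NSG DTC overlapped NSG tumours. Insig1 was not called in NSG DTC over tumours (0.01 ± 0.18, adjusted p = 0.969). It rose in BALB/c DTC (0.77 ± 0.18, adjusted p = 0.000959) and BALB/c macro-mets (1.04 ± 0.18, adjusted p = 5.56e-05) over tumours, and the host difference of the DTC change was -0.76 ± 0.25, adjusted p = 0.0197. That difference was -0.50 and not called on TPM, and the BALB/c DTC rise was 1.27 with marker covariates. NSG and BALB/c DTC were not told apart for Insig1 (0.02, adjusted p = 0.932 by edgeR).

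Insig2 (ENSMUSG00000003721, chr1:121304353-121332589), the second retention protein, fell where Insig1 rose in BALB/c DTC over tumours. NSG libraries had 74.3, 50.9, 67.0, 61.9 and 58.6 CPM in tumours, 69.7, 52.6, 74.7, 57.4 and 66.5 CPM in DTC and 77.3, 84.7, 77.7, 102 and 89.3 CPM in macro-mets. BALB/c libraries had 69.5, 79.3, 107, 68.4 and 78.0 CPM in tumours, 46.9, 48.9, 43.4, 46.1 and 40.0 CPM in DTC and 75.5, 86.9, 68.0, 79.6 and 71.9 CPM in macro-mets. BALB/c DTC were below all 25 other libraries, and in NSG mice macro-mets were above tumours and DTC. Insig2 was not called in NSG DTC over tumours (0.04 ± 0.12, adjusted p = 0.858) and fell in BALB/c DTC over tumours (-0.84 ± 0.12, adjusted p = 2.52e-06), with a host difference of 0.87 ± 0.17, adjusted p = 0.000202. It rose in BALB/c macro-mets over DTC (0.76 ± 0.12, adjusted p = 1.37e-05). With offsets the host difference of the DTC change was 0.49 and called.

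Srebf1, which encodes SREBP1 and chiefly drives fatty acid synthesis, averaged 129 ± 14.6 CPM in NSG DTC and 177 ± 32.0 CPM in NSG tumours, and 177 ± 36.4 CPM in BALB/c DTC and 166 ± 15.6 CPM in BALB/c tumours. It fell in NSG DTC (-0.46 ± 0.13, adjusted p = 0.00703) and was not called in BALB/c DTC (0.09 ± 0.13, adjusted p = 0.601), with a host difference of -0.55 ± 0.18, adjusted p = 0.0169. That host difference was not called with GC and length offsets (-0.15) or on TPM (-0.27). The NSG fall was not called on TPM (-0.23) or with marker covariates (-0.36), and it was -0.72 and called without the 4 libraries with the fewest genes. Stard4, a cytosolic sterol carrier, averaged 32.0 ± 5.58 CPM in NSG DTC and 13.5 ± 3.07 CPM in NSG tumours, and 23.1 ± 3.21 CPM in BALB/c DTC and 14.3 ± 3.62 CPM in BALB/c tumours. It rose in both hosts (NSG 1.24 ± 0.18, adjusted p = 1.31e-05, BALB/c 0.69 ± 0.18, adjusted p = 0.0029) and fell in NSG macro-mets over DTC (-0.94 ± 0.18, adjusted p = 8.01e-05). With offsets its NSG changes were 0.73 in DTC, still called, and -0.23 in macro-mets over DTC, not called, and with marker covariates its BALB/c rise was 0.52 and not called. Calls of regulators named here that ended without 1 library were the host differences of Insig1 (-0.62 without NSG tumour 5) and Srebf1 (-0.41 without BALB/c DTC 5).

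Among the 6 fatty acid enzymes calls went both ways. In NSG DTC over tumours Elovl6 rose and Fasn and Scd2 fell, and in BALB/c DTC over tumours Acly and Fasn rose and Scd2 fell, beside 16% higher and 9.55% lower over all tested genes in NSG mice and 20.4% and 21% in BALB/c mice. By the authors' TPM, Scd2 was the most abundant of the 31 genes (147 to 481 TPM), followed by Fasn (81.0 to 223 TPM) and Acly (71.9 to 171 TPM).

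Fasn (ENSMUSG00000025153, chr11:120805846-120824547), fatty acid synthase, was the member that fell in DTC over tumours in NSG mice and rose there in BALB/c mice. In NSG mice Fasn was at 553, 654, 488, 696 and 772 CPM in tumours, 409, 548, 381, 474 and 458 CPM in DTC and 641, 585, 526, 486 and 526 CPM in macro-mets. The BALB/c libraries had Fasn at 555, 413, 505, 408 and 326 CPM in tumours, 661, 709, 634, 605 and 941 CPM in DTC and 588, 551, 500, 542 and 507 CPM in macro-mets. BALB/c DTC were above all BALB/c tumours, BALB/c macro-mets and NSG DTC, and NSG DTC overlapped NSG tumours. Fasn fell in NSG DTC (-0.48 ± 0.14, adjusted p = 0.00955) and rose in BALB/c DTC (0.69 ± 0.14, adjusted p = 0.000179), a host difference of -1.16 ± 0.19, adjusted p = 3.27e-05. The NSG fall lost its call on TPM (-0.25) and with marker covariates (-0.37).

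Elovl6 (ENSMUSG00000041220, chr3:129532355-129638495), the elongase of palmitate, was the fatty acid enzyme that rose in NSG DTC. It was at 43.5, 39.7, 41.7, 47.0 and 49.4 CPM in tumours, 90.5, 96.9, 109, 78.3 and 84.0 CPM in DTC and 21.6, 22.7, 41.1, 12.5 and 27.3 CPM in macro-mets of NSG mice. Elovl6 in BALB/c hosts was at 71.7, 69.6, 76.7, 85.9 and 56.5 CPM in tumours, 70.6, 42.1, 51.1, 44.4 and 15.3 CPM in DTC and 28.0, 17.9, 27.3, 53.2 and 42.6 CPM in macro-mets. NSG DTC were above all NSG tumours and macro-mets and above all BALB/c DTC, while BALB/c DTC overlapped BALB/c tumours and ranged widely. Elovl6 rose in NSG DTC (1.05 ± 0.29, adjusted p = 0.00798) and fell in NSG macro-mets over DTC (-1.87 ± 0.30, adjusted p = 7.89e-06). The BALB/c DTC change was -0.69 ± 0.29, adjusted p = 0.0559, and the host difference was 1.74 ± 0.41, adjusted p = 0.00153. Its NSG DTC rise was 0.50 and not called with GC and length offsets, 0.86 and not called without the 4 libraries with the fewest genes, and 0.68 and not called with marker covariates. The offsets also gave -1.11 for the NSG fall in macro-mets over DTC and 0.96 for the host difference, both called. The BALB/c DTC change was called lower by DESeq2 (-0.71), voom (-0.88), on TPM (-0.81), without the 2 lung-rich libraries (-0.98) and with marker covariates (-1.6).

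Acly (ENSMUSG00000020917, chr11:100476353-100528000), which makes cytosolic acetyl-CoA from citrate, was at 239, 239, 213, 288 and 290 CPM in tumours, 236, 274, 193, 249 and 238 CPM in DTC and 320, 306, 315, 288 and 300 CPM in macro-mets of NSG mice. BALB/c values of Acly were 204, 208, 185, 157 and 170 CPM in tumours, 212, 289, 263, 229 and 347 CPM in DTC and 311, 299, 284, 285 and 271 CPM in macro-mets. BALB/c tumours were below every other BALB/c library and every NSG tumour. Acly was not called in NSG DTC over tumours (-0.09 ± 0.11, adjusted p = 0.605). It rose in BALB/c DTC (0.54 ± 0.11, adjusted p = 0.000358) and BALB/c macro-mets (0.65 ± 0.11, adjusted p = 5.83e-05) over tumours, and its DTC change was lower in NSG mice (-0.63 ± 0.16, adjusted p = 0.00288). That difference was -0.36 and not called on TPM. Between hosts in DTC, Acly was not called by edgeR (-0.17, adjusted p = 0.245). It was called lower in NSG DTC without the 4 libraries with the fewest genes (-0.27) and with marker covariates (-0.43). The BALB/c rises were 0.84 in DTC with marker covariates and 0.38 in macro-mets with offsets, both called.

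Acaca (ENSMUSG00000020532, chr11:84129672-84401651), acetyl-CoA carboxylase 1, makes malonyl-CoA. NSG hosts had 83.2, 76.5, 61.5, 93.3 and 97.2 CPM in tumours, 85.2, 89.7, 89.9, 79.0 and 87.7 CPM in DTC and 55.5, 60.7, 46.9, 36.2 and 58.5 CPM in macro-mets. BALB/c hosts were at 55.5, 42.8, 60.8, 49.7 and 44.5 CPM in tumours, 53.6, 67.6, 53.8, 50.1 and 49.0 CPM in DTC and 62.5, 46.4, 59.1, 75.5 and 60.4 CPM in macro-mets. NSG macro-mets were below all NSG tumours and DTC, and NSG tumours and DTC were each above their BALB/c counterparts. Acaca fell in NSG macro-mets over tumours (-0.67 ± 0.14, adjusted p = 0.00048) and over DTC (-0.74 ± 0.14, adjusted p = 5.79e-05). The BALB/c macro-met changes were 0.26 ± 0.14, adjusted p = 0.133 over tumours and 0.15 ± 0.14, adjusted p = 0.451 over DTC, with host differences of -0.94 ± 0.20, adjusted p = 0.00402 and -0.89 ± 0.20, adjusted p = 0.00105. With offsets the NSG fall of Acaca over DTC was -0.15 and its host difference -0.24, neither called, and the BALB/c change over tumours was 0.55 and called higher. Scd2, a stearoyl-CoA desaturase, fell in DTC over tumours in NSG (-0.79 ± 0.19, adjusted p = 0.00218) and BALB/c mice (-0.59 ± 0.19, adjusted p = 0.0125). The BALB/c fall of Scd2 was not called on the compared groups alone (-0.58), without the 2 lung-rich libraries (-0.50) or with marker covariates (-0.42). Of the calls named for Fasn, Elovl6, Acly, Acaca and Scd2, none was lost when 1 library was left out. Other calls of these genes did end that way. These were Elovl6 in NSG macro-mets over tumours (-0.80 to -0.65) and Acly in NSG macro-mets over DTC (0.29). In BALB/c macro-mets over DTC they were Scd2 (0.43 to 0.51) and Fasn (-0.38 to -0.28).

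Abca1 (ENSMUSG00000015243, chr4:53030787-53159895), the cholesterol exporter, was the lowest of the 31 genes by TPM (0.165 to 6.37 TPM). In NSG mice Abca1 was at 1.29, 5.09, 7.82, 1.76 and 1.26 CPM in tumours, 1.16, 1.85, 2.21, 1.23 and 1.36 CPM in DTC and 0.608, 1.54, 12.3, 1.54 and 1.7 CPM in macro-mets. The BALB/c libraries had Abca1 at 4.71, 5.44, 4.45, 27.3 and 9.52 CPM in tumours, 3.59, 2.05, 1.43, 1.64 and 1.44 CPM in DTC and 1.1, 0.858, 1.36, 1.28 and 1.83 CPM in macro-mets. BALB/c tumours were above all BALB/c DTC and macro-mets, and BALB/c tumour replicate 4 and NSG macro-met replicate 3 were far above their groups. Abca1 fell in BALB/c DTC (-2.34 ± 0.65, adjusted p = 0.00511) and BALB/c macro-mets (-3.00 ± 0.67, adjusted p = 0.000934) over tumours, and the macro-met change differed between hosts (3.05 ± 0.90, adjusted p = 0.0446). Without the 4 libraries with the fewest genes the falls were -1.56 and -2.24, both called, on TPM they were -1.06 and -1.21, and the macro-met fall was -1.69 with marker covariates. The host difference was lost with marker covariates (0.99), on TPM (1.16), by voom (2.36), without a filter (3.12) and on the compared groups alone (3.08), and it ended when 1 library was left out (1.64 to 3.21 without NSG tumour 1, 4 or 5, BALB/c tumour 4 or 5, NSG macro-met 3 or any BALB/c macro-met).

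Scd1, the other stearoyl-CoA desaturase, fell outside the rule for values per library and was chosen after its values were seen, because the same libraries stood out. In NSG mice Scd1 was at 35.7, 88.6, 119, 33.5 and 31.6 CPM in tumours, 38.2, 34.0, 47.3, 27.7 and 38.2 CPM in DTC and 44.2, 41.4, 182, 52.0 and 43.3 CPM in macro-mets. The BALB/c libraries had Scd1 at 66.7, 92.0, 64.4, 440 and 56.1 CPM in tumours, 115, 90.0, 46.1, 53.8 and 68.3 CPM in DTC and 61.2, 46.3, 52.1, 72.2 and 59.5 CPM in macro-mets. The 5 highest values were in BALB/c tumour 4, NSG macro-met 3, NSG tumour 3, BALB/c DTC 1 and BALB/c tumour 2. The sum of 12 adipocyte markers was 44.4 CPM in BALB/c tumour 4, 24.6 CPM in NSG macro-met 3, 11.0 CPM in NSG tumour 3, 13.3 CPM in BALB/c DTC 1 and 4.61 CPM in BALB/c tumour 2. In the other 25 libraries it was at most 10.3 CPM, in NSG DTC 4, which had the lowest Scd1 (27.7 CPM). The sum of 8 skeletal muscle markers was 797 CPM in BALB/c tumour 4, 318 CPM in NSG macro-met 3 and 220 CPM in NSG tumour 3. In BALB/c DTC 1 and BALB/c tumour 2 it was 32.9 and 60.3 CPM. Fibroblast markers (8 genes) summed to 853 CPM in BALB/c tumour 4 and 586 CPM in NSG macro-met 3. The part of muscle and fibroblast markers in Scd1 and Abca1 was not tested. Of the defining adipocyte genes, Adipoq was at 0.0 to 0.554 CPM and Plin1 at 0.0 to 2.69 CPM over the 30 libraries. Adipoq reached 0.554 CPM in NSG macro-mets (median 0.0349), 0.503 CPM in BALB/c tumours (median 0.119) and 0.432 CPM in NSG tumours. Plin1 reached 2.69 CPM in BALB/c tumours (median 0.179), 1.04 CPM in NSG macro-mets (median 0.152) and 0.721 CPM in NSG tumours. The part of adipocyte markers in Scd1 and Abca1 was not tested beyond the fit with covariates and the fit without those libraries. Scd1 fell in BALB/c macro-mets over tumours (-1.30 ± 0.52, adjusted p = 0.0477), but the change was -0.28 and not called without the 4 libraries with the fewest genes and 0.23 with marker covariates. It was also not called by voom (-0.78), on TPM (-0.70), without a filter (-1.30) or on the compared groups alone (-1.37), and the call ended when 1 library was left out (-1.39 to -0.26 without BALB/c tumour 4, BALB/c macro-met 1, BALB/c macro-met 2, BALB/c macro-met 3, BALB/c macro-met 4 or BALB/c macro-met 5).

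**Figure D4:**
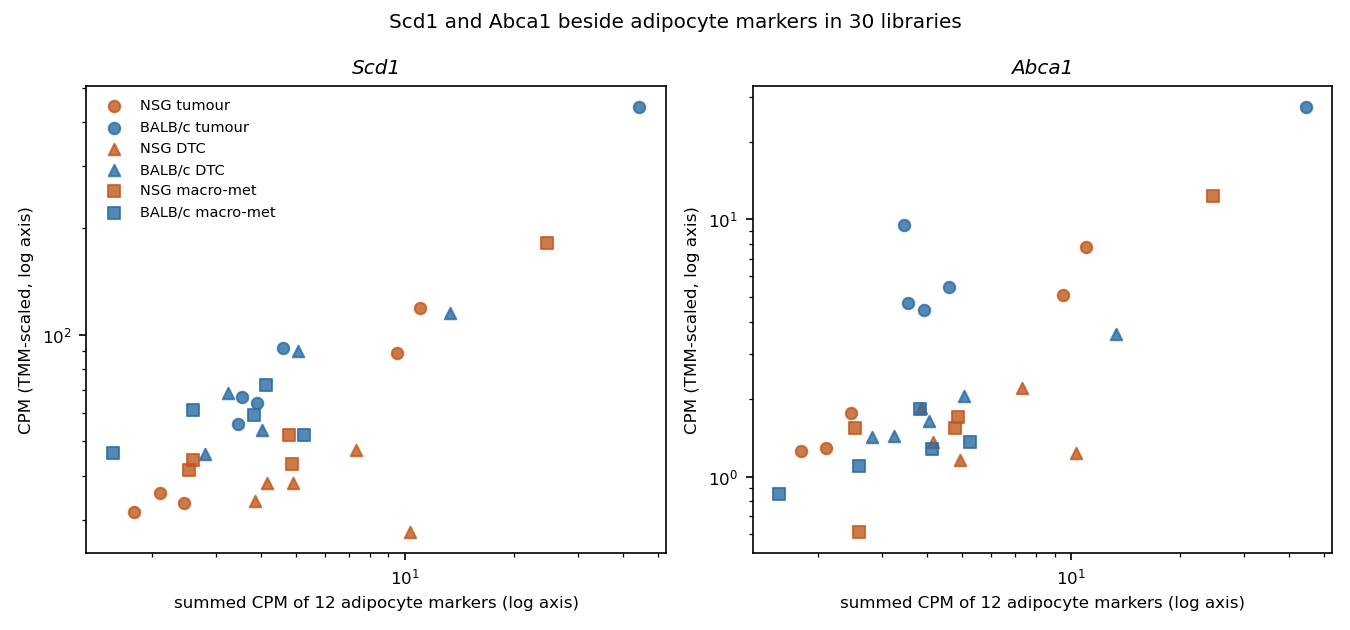
CPM of Scd1 and Abca1 (vertical, log axis) against the summed CPM of 12 adipocyte markers (horizontal, log axis) in the 30 libraries; colour marks host and shape marks stage. BALB/c tumour replicate 4, at 44.4 CPM of markers, has the highest Scd1 (440 CPM) and Abca1 (27.3 CPM), and NSG macro-met replicate 3, at 24.6 CPM, the next highest. Skeletal muscle markers, not drawn, were also highest in these libraries (797 and 318 CPM).

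The GC content of the exons in each gene's longest transcript, 41.9% to 59.1% over the 31 genes, ran with the changes in the NSG DTC comparisons. Spearman's rho between GC content and log2 fold change was -0.602 over the 31 genes and -0.361 over 17717 genes for DTC over tumour in NSG mice, and 0.166 and 0.303 in BALB/c mice. For NSG over BALB/c in DTC it was -0.763 over the 31 genes and -0.49 over all. The host difference of the DTC change had a rho of -0.713 over the 31 genes and -0.462 over all. For macro-met over DTC it was 0.475 and 0.464 in NSG mice and -0.204 and 0.048 in BALB/c mice. The host difference of that change had 0.628 and 0.464. These are descriptions across genes, which share libraries and depth and are not independent replicates. Idi1, Sc5d, Hmgcs1, Stard4, Hsd17b7, Elovl6 and Msmo1, at 41.9% to 44.7% GC, were the 7 members of lowest GC, and all 7 were among the 9 that rose in NSG DTC over tumours. With GC and length offsets rho for NSG DTC over tumour was -0.315 over the 31 genes and 0.025 over all. The host difference of the DTC change kept 14 of its 18 calls with the offsets, and lost those of Mvk (-0.53), Pmvk (-0.46), Fdps (-0.62) and Srebf1 (-0.15). With the offsets 2 genes were called higher and 17 lower there, so some genes not called in the main fit became called. Those genes are not named here. The part of GC content in these results was not tested beyond that fit.

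**Figure D5:**
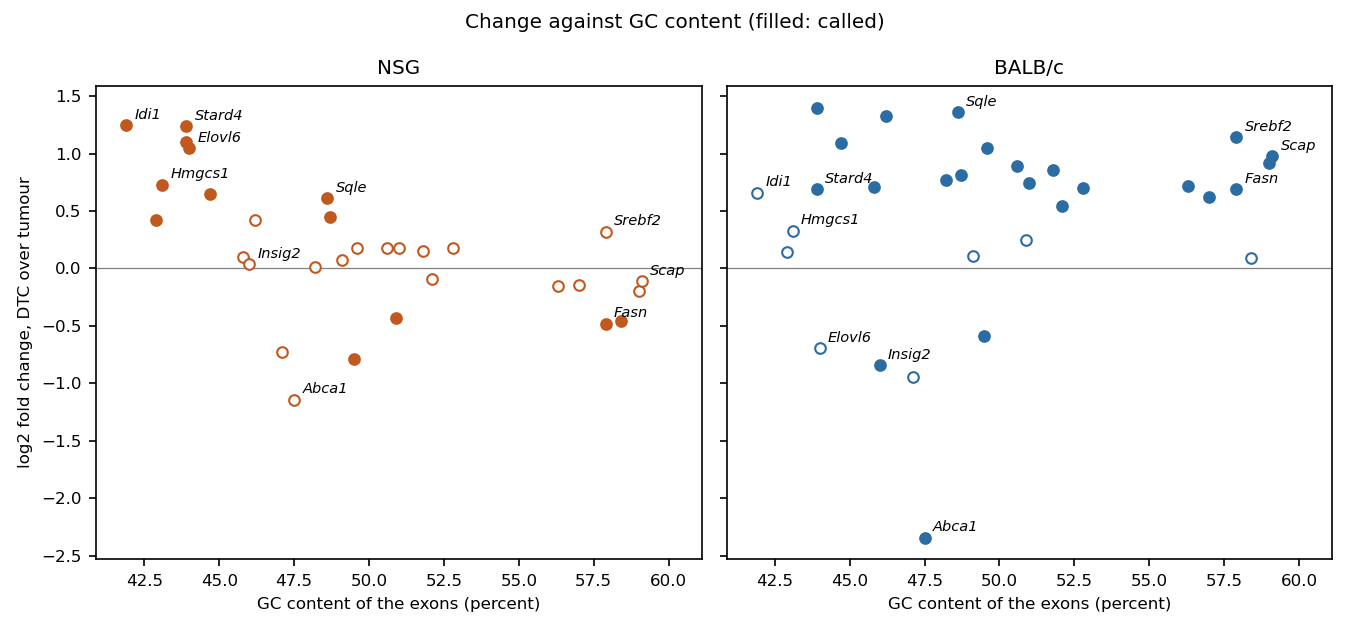
Log2 fold change of DTC over tumour against the GC content of the exons in each gene's longest transcript for the 31 genes. NSG is left and BALB/c right, and filled points were called by edgeR. In NSG mice the 7 genes of lowest GC, at 41.9% to 44.7%, were all called higher. In BALB/c mice Mvk, Pmvk, Fasn, Srebf2, Mvd and Scap, at 56.3% to 59.1%, were among those called higher, while Srebf1, at 58.4%, was not called. Hsd17b7, Stard4 and Msmo1, at 43.9% to 44.7%, were also called higher in BALB/c mice.

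Other genes of these pathways were taken from a list of 58, of which 22 were called in at least 5 of the 9 pairwise comparisons. Of 20 other sterol, uptake and SREBP-processing genes tested, 6 rose and 3 fell in NSG DTC over tumours (median 0.10), and 10 rose and 6 fell in BALB/c DTC over tumours (median 0.30). Over all tested genes 16% were called higher and 9.55% lower in NSG mice, and 20.4% higher and 21% lower in BALB/c mice. Mylip, a sterol-responsive ubiquitin ligase gene, fell in both hosts (NSG -1.88 ± 0.17, BALB/c -2.16 ± 0.18). Tmem97, a sterol-responsive membrane protein, and Aacs, acetoacetyl-CoA synthetase, rose in BALB/c DTC (1.46 ± 0.15 and 0.94 ± 0.16) with host differences of -1.13 ± 0.21 and -0.96 ± 0.23. Lbr, a sterol C14 reductase, rose in both hosts (NSG 0.36 ± 0.10, BALB/c 1.02 ± 0.10), as did the lipoprotein receptor gene Lrp8 (NSG 0.95 ± 0.18, BALB/c 1.17 ± 0.18). Npc2, a lysosomal cholesterol carrier, fell in both (NSG -0.81 ± 0.10, BALB/c -0.66 ± 0.10), and so did the ubiquitin ligase gene Rnf145 (NSG -1.31 ± 0.13, BALB/c -0.54 ± 0.13). The NSG change of Lbr was -0.08 under offsets, 0.25 and not called without the 4 libraries with the fewest genes, and 0.33 and not called with marker covariates. With offsets the NSG rise of Lrp8 was 0.54 and the host difference of Aacs -0.54, both called. The BALB/c fall of Rnf145 was not called with offsets (-0.11) or with marker covariates (-0.30).

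Of 27 other fatty acid and lipid genes, 3 rose and 1 fell in NSG DTC over tumours (median -0.01), and 13 rose and 4 fell in BALB/c DTC over tumours (median 0.27), beside the same shares of all genes. Fads2, the delta-6 desaturase, was not called in NSG DTC (0.01 ± 0.16, adjusted p = 0.975) and rose in BALB/c DTC (1.46 ± 0.17, adjusted p = 4.61e-08), a host difference of -1.45 ± 0.23, adjusted p = 2.25e-05. Mid1ip1, whose product aids acetyl-CoA carboxylase, rose in BALB/c DTC (1.17 ± 0.15, adjusted p = 2.29e-07) with a host difference of -1.01 ± 0.21, adjusted p = 0.000323. Acsl4, an acyl-CoA synthetase of polyunsaturated fatty acids, rose in NSG DTC (1.24 ± 0.38, adjusted p = 0.0156) and fell in BALB/c DTC (-1.38 ± 0.38, adjusted p = 0.00465), with a host difference of 2.62 ± 0.53, adjusted p = 0.000394. Of the same family of synthetases, Acsl3 fell in BALB/c DTC (-0.68 ± 0.19) and Acsl5 rose in both hosts (NSG 0.33 ± 0.10, BALB/c 0.65 ± 0.10). Hacd2, a dehydratase of fatty acid elongation, rose in BALB/c DTC (0.61 ± 0.12), and Elovl7, an elongase, in NSG DTC (0.30 ± 0.11). Mlxipl, a carbohydrate-responsive transcription factor, fell in both hosts (NSG -2.48 ± 0.77, BALB/c -2.35 ± 0.71). Of 10 liver X receptor genes and targets, none rose and 2 fell in NSG DTC over tumours, and 3 rose and 1 fell in BALB/c DTC over tumours (all genes 16% higher and 9.55% lower in NSG mice, 20.4% and 21% in BALB/c mice). Nr1h3, liver X receptor alpha, rose in BALB/c DTC (0.81 ± 0.28, adjusted p = 0.022) and was lower in NSG than in BALB/c DTC (-1.40 ± 0.29, adjusted p = 0.00022), Rxra, its partner, rose in BALB/c DTC (0.38 ± 0.12), and Nr1h2, liver X receptor beta, fell in both hosts (NSG -0.49 ± 0.11, BALB/c -0.30 ± 0.11). Calls that ended when 1 library was left out were those of Elovl7 in NSG DTC (0.14 to 0.31 without any NSG tumour or DTC library but tumour 3), Acsl5 in NSG DTC (0.27 to 0.28 without NSG DTC 3 or NSG DTC 5), Mlxipl in NSG DTC (-2.07 to -1.91 without NSG tumour 2 or NSG tumour 3), and Nr1h3 (0.60 to 0.72 without BALB/c tumour 1, BALB/c tumour 3, BALB/c DTC 1 or BALB/c DTC 4), Nr1h2 (-0.28 to -0.26 without BALB/c tumour 2, BALB/c tumour 3, BALB/c DTC 1, BALB/c DTC 2 or BALB/c DTC 3) and Rxra (0.27 without BALB/c DTC 5) in BALB/c DTC. Under offsets the NSG change of Elovl7 was -0.29, that of Acsl4 was 0.41 and not called (0.11 with marker covariates and 0.92 without the 4 libraries with the fewest genes), that of Acsl5 was 0.16 and not called, and the BALB/c change of Acsl3 was -0.35 and not called. The offsets also gave -0.85 for Acsl4 in BALB/c DTC and 1.26 for its host difference, both called. The call of Elovl7 ended in every other alternative fit except voom and TPM. Without the 4 libraries with the fewest genes the NSG changes of Mlxipl (-0.55) and Acsl5 (0.22) were not called, and that of Mlxipl was also lost by voom (-1.67) and on TPM (-0.09). With marker covariates the calls of Mlxipl in both hosts (NSG -2.23, BALB/c -2.78), Nr1h2 in both hosts (NSG -0.39, BALB/c -0.09) and Nr1h3 in BALB/c DTC (0.14) and between hosts in DTC (-0.76) were lost. The BALB/c call of Nr1h3 was lost with offsets (0.53), that of Rxra with offsets (0.11) and on TPM (0.34), and those of Nr1h3 (0.60) and Nr1h2 (-0.23) without the 2 lung-rich libraries. Marker covariates gave larger BALB/c changes, still called, for Acsl4 (-3.46), Acsl3 (-1.43), Hacd2 (1.03) and Rxra (0.73), and ended the NSG call of Acsl5 (0.24). Nr1h3 was also not called in BALB/c DTC on the compared groups alone (0.81), nor Nr1h2 without a filter (-0.26).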

How the data were processed

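Bulk RNA sequencing of sorted 4T1-tdTomato cells gave 30 libraries in 6 groups of 5. Reads were trimmed with Trimmomatic 0.36 and aligned with STAR 2.5.2b to GRCm38 (mm10), per the submitters' processing notes. The counting tool, its strand setting, the annotation release and the lengths behind TPM are not given in the sources used here. The authors deposited raw counts per gene and TPM values, and TPM served only to compare genes with each other and as an alternative scale.

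The 17774 genes kept by filterByExpr held 99.969% of the counts. edgeR 4.0.16 in R 4.3.3 (TMM, robust quasi-likelihood, 6 group means over 30 libraries, 24 residual degrees of freedom) gave log2 fold changes with SE and p-values with Benjamini-Hochberg adjustment over all genes tested. Intervals are the change ± 1.96 SE. Levels are CPM with TMM-scaled library sizes. The total counts limit precision for low genes such as Abca1, with 33 to 1249 counts per library.

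Members and lists were chosen with earlier results of these data known. All 31 genes are reported. Values per library are given for genes called in at least 5 of 9 pairwise comparisons or in an interaction, at most 4 per role, those with the largest range of group means first. Other pathway genes are named where called in at least 5 of 9, and some of these are not reported here. Gene positions and GC content are from GENCODE M21 on GRCm38.

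Alternatives were RLE size factors, no filter, DESeq2 1.42.0, limma voom 3.58.1, limma on log2(TPM + 1) and log2(TPM + 0.1), spline offsets for GC content and length, fits on the compared groups alone, fits without 4 gene-poor or 2 lung-rich libraries, marker covariates, and leaving out each library. The edgeR fit was checked on simulated data.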

Additional observations from a re-analysis of the deposited data

Results flagged for a closer look

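Of 186 groups of 5 libraries (31 genes in 6 groups), 14 had 1 library far from the other 4. For independent groups chance would give about 1 in 20. The 186 share the same 30 libraries, so the 14 cannot be read against that share. BALB/c DTC replicate 5 was the highest for Acat2 (95.1 CPM), Srebf1 (240 CPM) and Srebf2 (408 CPM). NSG macro-met replicate 3 was the highest for Scd1 (182 CPM) and Abca1 (12.3 CPM) and the lowest for Acat2 (41.3 CPM), and BALB/c tumour replicate 4 was the highest for Scd1 (440 CPM) and Abca1 (27.3 CPM). Abca1 was also far higher in BALB/c DTC replicate 1 (3.59 CPM), Acat2 in NSG DTC replicate 5 (66.8 CPM), Insig2 in BALB/c tumour replicate 3 (107 CPM) and Acaca in BALB/c DTC replicate 2 (67.6 CPM). Fdps was far lower in NSG macro-met replicate 4 (62.8 CPM) and Sqle in BALB/c macro-met replicate 3 (123 CPM).

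The change in DTC over tumours differed between hosts for 18 genes by the interaction term of edgeR, given as NSG minus BALB/c on the log2 scale. Over all tested genes 15% were called lower and 18.4% higher in that term. The change was lower in NSG mice for Mvk (-0.87), Acat2 (-0.86), Pmvk (-0.77), Mvd (-1.11) and Fdps (-0.71) of the mevalonate enzymes. Among sterol enzymes it was lower for Fdft1 (-0.71), Sqle (-0.76), Cyp51 (-0.91), Nsdhl (-0.61) and Ebp (-0.68). Among regulators it was lower for Insig1 (-0.76), Srebf1 (-0.55), Srebf2 (-0.82) and Scap (-1.09) and higher for Insig2 (0.87). Among fatty acid enzymes it was lower for Acly (-0.63) and Fasn (-1.16) and higher for Elovl6 (1.74).

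The change in macro-mets over DTC differed for 10 genes, where 11.6% of all tested genes were called higher and 16.6% lower. It was higher in NSG mice for Mvk (0.89), Pmvk (0.97), Mvd (1.44), Fdps (0.71), Ebp (0.43), Srebf2 (0.58), Scap (0.77) and Fasn (0.68), and lower for Acaca (-0.89) and Elovl6 (-1.47). The call of Ebp ended without any 1 of 12 libraries (0.38 to 0.44), and that of Srebf2 without any 1 of 3 (0.45 to 0.55). Macro-mets over tumours differed for Sqle (-0.81), Acaca (-0.94) and Abca1 (3.05), where 1.7% of all tested genes were called higher and 3.53% lower. These terms share libraries with each other.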

How the results depend on the processing

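Counts of the 31 genes are given for NSG before BALB/c. With GC and length offsets the counts moved by over 1.5 times for DTC over tumour in NSG (4 higher), macro-met over DTC in NSG (3 lower) and BALB/c (1 higher), macro-met over tumour in NSG (7 lower), NSG over BALB/c in tumours (0 lower) and DTC (0 higher), and the host difference of macro-met over DTC (0 lower). Without the 4 gene-poor libraries they were 3 higher in NSG DTC over tumour, 2 higher in NSG macro-met over tumour, 2 lower and 3 higher for NSG over BALB/c in tumours and DTC, and 1 lower for the host difference of macro-met over tumour. With marker covariates NSG DTC over tumour gave 5 higher and 1 lower, BALB/c macro-met over DTC 1 higher, NSG macro-met over tumour 2 lower, NSG over BALB/c tumours 2 lower, and the host differences 14 higher (macro-met over DTC) and 1 lower (macro-met over tumour). On both TPM scales NSG DTC over tumour gave 1 lower, NSG macro-met over DTC 2 higher, BALB/c macro-met over DTC 6 lower, NSG over BALB/c DTC 6 lower, the host difference in DTC over tumour 4 higher and 8 lower and in macro-met over DTC 4 higher and 7 lower, and with TPM + 1 NSG over BALB/c tumours gave 2 lower. BALB/c macro-met over DTC gave 1 higher without a filter, on the compared groups alone and without the 2 lung-rich libraries. NSG over BALB/c tumours gave 3 lower by DESeq2 and 2 lower by voom and on the compared groups alone, and NSG over BALB/c macro-mets gave 1 lower on the compared groups. NSG over BALB/c DTC gave 3 higher without a filter. The host difference of macro-met over tumour gave 2 higher by RLE and DESeq2, and 0 higher by voom, without a filter and on the compared groups. The shares of all tested genes called in each of these fits are not given here, and the cause was not tested.

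Of the 152 calls of the 31 genes, offsets kept 106, lost 39 and reversed 7, both TPM scales kept 116, the fit without the gene-poor libraries 132, covariates 130 and DESeq2 152, and leaving out each library in turn never ended 115. Reversed values were, with offsets, Sc5d (-0.15) in NSG DTC over tumour, Sc5d (0.40), Srebf1 (-0.02) and Hmgcs1 (0.15) in NSG macro-met over DTC, Sc5d (-0.34), Acaca (-0.04) and Stard4 (-0.16) in NSG over BALB/c DTC, and, with covariates, Scd1 (0.23) in BALB/c macro-met over tumour. Of the other pathway genes named, Lbr (-0.08) and Elovl7 (-0.29) reversed with offsets in NSG DTC over tumour.

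Leaving out 1 library gave 4 to 8 higher for macro-met over DTC in NSG and 1 to 2 in BALB/c, 0 to 3 lower for NSG over BALB/c tumours, 3 to 6 higher for NSG over BALB/c DTC, and 0 to 2 higher and 1 to 3 lower for the host difference of macro-met over tumour. No paired analysis was possible because the library codes in the labels are not shared between groups.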
